A study of Sus scrofa with 2 samples.

Results

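The purine-rich added probes are 14 oligonucleotide probes of a custom pig microRNA (miRNA) microarray whose target miRNAs consist mostly of adenine and guanine. The set was proposed with earlier results of these data known, so its ratios are a description. A probe belonged to it if its name carries the prefix Y-, which marks probes added to the miRBase set, and if 80% or more of the bases of its listed mature miRNA are A or G. The rule took 14 of the 100 added probes and so 14 of the probes on the array, which holds the 100 added and 255 miRBase probes. None of the miRBase probes reached 80% A plus G.

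The array measured miRNAs of the anterior pituitary in Bama minipigs, a small Chinese breed, and in Landrace pigs, a large commercial breed, both at 20 days of age. Each breed was represented by 1 pooled sample of 3 pigs, hybridised to 1 array. There was therefore no replicate of either breed, no test between breeds could be made, and every comparison here is between 2 pools. Values are fluorescence signals on a linear scale, and the log2 ratio is that of Bama minipigs over Landrace pigs.

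miRNAs are short RNAs cut from the arms of hairpin-shaped precursors. They are loaded onto Argonaute proteins and guide them to messenger RNAs, mainly through the seed, the bases 2 to 8 counted from the 5′ end, and the bound messenger RNA is translated less or broken down. Purines are the larger of the bases, A and G, and a miRNA made mostly of purines pairs with stretches of C and U in its targets. In the anterior pituitary, miRNAs act in the endocrine cells that make growth hormone, prolactin, gonadotropins and the other hormones of the lobe.

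The median signal over all probes was 114 in the Bama pool and 95.1 in the Landrace pool. The summed signal was 695596 and 671754, respectively. The miRNAs fixed as markers of anterior pituitary endocrine cells had high signals in both pools: ssc-miR-7 gave 35031 in the Bama pool and 42831 in the Landrace pool, and Y-90, listed as miR-375, gave 34707 and 32765. None of the 4 endocrine markers differed 2-fold between the pools, and their summed signal was 93804 in the Bama pool and 100848 in the Landrace pool.

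Of the 14 purine-rich added probes, 10 had a signal 2-fold or more higher in Bama minipigs and 0 had one 2-fold or more lower. Over all probes of the array, 19.4% were 2-fold or more higher and 15.2% were 2-fold or more lower. The median log2 ratio of the 14 was 1.26, with a range of -0.064 to 4.35, against a median of 0.031 over all probes. The log2 ratio was above 0 for 13 of the 14 and for 182 of all probes. In bulk tissue, a change in the number of cells that hold a miRNA and a change in its amount per cell cannot be told apart.

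Low signals give unsteady ratios, so the same counts were taken over probes whose mean of the 2 signals was 100 or more. This minimum left 10 of the 14 purine-rich added probes and 182 probes of the array. Among the 10, 7 were 2-fold or more higher in Bama minipigs and 0 were lower, while 13.2% of the 182 probes were higher and 3.3% were lower. The median log2 ratio was 1.25 for the 10 and 0.025 for the 182. Y-12 was the only one of the 10 with a signal below 100 in either pool, that of the Landrace pigs. Readings of the background and of single spots were not used here, so whether a signal stood above background was not determined. Log2 ratios and 2-fold calls of probes below this minimum only describe the deposited values.

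A measure of technical error that the values used here allow comes from pairs of probes whose target sequences overlap fully. There were 5 such pairs on the array. In the 4 pairs in which both probes had a mean signal of 100 or more, the log2 ratios within a pair differed by a median of 0.081 and by 0.15 at most. In the remaining pair, of low signal, they differed by 0.78. Probes that overlap only in part were not counted. Among them, ssc-miR-199b*, whose sequence is nearly that of ssc-miR-199a-3p, had a log2 ratio of -0.42. The counted pair of ssc-miR-199a-3p and ssc-miR-199a* had -0.90 and -1.04. Nearly identical probes with mean signals of 100 or more thus also stood further apart than 0.15. These differences describe the probes on this pair of arrays and say nothing about the spread between pigs.

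The motif GGAGG occurs in 7 of the 14 purine-rich added probes. The sequences of 5 of those 7 are printed to show where it lies. GGAGG consists of purines, so the rule that chose the probes favours it, and its frequency in the set is not a finding. Capitals mark each GGAGG, and overlapping or adjoining copies run together.
Y-23: ggaguaggaaGGAGGAGGgaaaca
Y-24: GGAGGgagagagggagagcgugcc
Y-31: gagcuggagaaGGAGGugggc
Y-84: ggggggcaGGAGGggcucaggg
Y-71: agguagaauaagugGGAGGc

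Y-56 had a signal of 6159 in the Bama pool and 2656 in the Landrace pool. Y-44 had 5889.6 and 2486 in the same order. The 2 probes gave log2 ratios of 1.21 and 1.24. Both were more than 2-fold higher in the Bama pool.

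Y-23, with 91.7% purines, gave 1395 in the Bama pool and 463 in the Landrace pool. Its log2 ratio of 1.59 is a 3.01-fold difference. Y-24, in which a run of 18 purines starts at the 5′ end, gave 1767 and 731 and a log2 ratio of 1.27. Y-31 gave 3571 in the Bama pool and 1504 in the Landrace pool, a log2 ratio of 1.25. These probes were also above 2-fold, with the Bama pool higher.

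Y-84 and Y-71 hold the motif but fell short of 2-fold. Y-84, listed as miR-328 of another species, gave 6655 in the Bama pool and 3411 in the Landrace pool, a log2 ratio of 0.96. The miRBase probe ssc-miR-328, which has a different sequence, gave 413 and 565, a log2 ratio of -0.45. Y-71, the only one of the 14 listed as coming from pig pituitary, gave 6152 and 3687, a log2 ratio of 0.74. Over the 7 probes with GGAGG, 5 were 2-fold or more higher in Bama minipigs and the median log2 ratio was 1.24, and each had a mean signal of 100 or more.

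The other 7 purine-rich added probes lack GGAGG. In their sequences, capitals mark the longest unbroken run of A and G (the first of them where several are equally long).
Y-12: aggguGGAGAGAuggauggaugg
Y-30: gagggucAGGGAGAGGAAGcca
Y-22: GGGAAGGcacgaguagagag
Y-47: agggcacaggaugggauGAGGA
Y-15: uAGGAAAAGGGAAGAAGAcaau
Y-55: AGAGGGcgagcugaggagcg
Y-50: AGGAGAuggaagaugagcuag

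Y-12, in which GGAU occurs in tandem near the 3′ end, had a signal of 413 in the Bama pool and 96.2 in the Landrace pool. Its log2 ratio of 2.10 was the highest among the 10 probes with a mean signal of 100 or more. Y-30 gave 505 and 182, a log2 ratio of 1.48. Both were more than 2-fold higher in the Bama pool without holding GGAGG.

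Y-55 had nearly the same signal in both pools, 181 in the Bama pool and 167 in the Landrace pool. Its log2 ratio of 0.11 was smaller than 0.15, the largest difference within fully overlapping pairs with both mean signals at 100 or more. Y-55 turned sign when the arrays were rescaled by their 75th percentiles (-0.076). It also did so under scaling by the medians over probes with a mean signal of 100 or more (-0.059). It was the only one of the 10 brighter members whose sign turned under the scalings tried.

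The remaining 4 members had mean signals below 100. Y-22 gave 72.9 in the Bama pool and 22.0 in the Landrace pool, and Y-47, listed as ssc-miR-7139-3p, gave 68.3 and 27.0. Y-15 gave 11.7 and 0.575, so that the highest log2 ratio of the set, 4.35, rests on very low signals. Y-50 gave 1.71 and 1.79, the only log2 ratio below 0, which turned to 0.63 under quantile normalization. When 50 signal units were added to both signals before the ratio was taken, the log2 ratios of Y-15, Y-22 and Y-47 were 0.29, 0.77 and 0.62 and no longer reached 2-fold, which left 7 of the 14 probes past it. The count of all probes at or above 2-fold fell from 69 to 23 with this offset.

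Across the 7 probes without GGAGG, 5 were 2-fold or more higher and the median log2 ratio was 1.48, but 3 of those 5 (Y-15, Y-22 and Y-47) had mean signals below 100. With the offset of 50, 2 of the 7 without the motif were 2-fold or more higher (Y-12 and Y-30), with a median of 0.62, against 5 of the 7 with it, with a median of 1.22. How members with and without GGAGG compare thus depends on how low signals are treated. GGAGG occurs in 15 probes, or 4.23% of the array. The 8 probes with it outside the purine-rich set were ssc-let-7e, ssc-miR-30b-3p, Y-11, Y-37, Y-48, Y-52, Y-53 and Y-96. Of these, 3 were 2-fold or more higher (ssc-let-7e, Y-48 and Y-52), 0 were lower, and the median log2 ratio was 0.87. Y-48 (18.9 and 5.70) and Y-52 (34.3 and 14.1) had mean signals below 100, and with the offset of 50 only ssc-let-7e was 2-fold or more higher and the median was 0.24. The 333 probes outside the set without the motif had 56 higher and 54 lower, and a median of -0.023. With the offset of 50 these were 15 higher and 4 lower, and at a mean signal of 100 or more 16 and 6 of 170, so the even balance of calls came with low signals.

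Among the 8, only ssc-let-7e and Y-11 had mean signals of 100 or more, and they are printed with GGAGG in capitals.
ssc-let-7e: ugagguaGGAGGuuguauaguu
Y-11: ucagaGGAGGagcagugacu
The miRBase probe ssc-let-7e, of the let-7 family, gave 9231 in the Bama pool and 4335 in the Landrace pool, a log2 ratio of 1.09. Y-11 gave 175 and 88.8, a log2 ratio of 0.97. Both had the higher signal in Bama minipigs at a lower purine content than the set, 63.6% for ssc-let-7e and 70% for Y-11.

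Probes of like sequence can bind the same RNA, so members that share long runs are not independent readings. Y-23, Y-31, Y-44 and Y-56 are joined by shared runs of 9 or more bases. With 1 probe kept of this group, 11 probes remained, of which 7 were 2-fold or more higher, with a median log2 ratio of 1.27 over the 11. Those 7 include Y-15, Y-22 and Y-47, which had mean signals below 100. By contrast, all 14 seeds differed from one another and from the seed of every other probe on the array.

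Runs shared with probes outside the set gave mixed results. Y-47 lies whole within Y-14, which has 1 more base at its 5′ end and is listed under the same name, ssc-miR-7139-3p.
Y-14: uAGGGCACAGGAUGGGAUGAGGA
Capitals mark the 22 bases of Y-47. Y-14 gave 68.7 in Bama minipigs, close to the 68.3 of Y-47, but 15.8 in Landrace pigs, where Y-47 gave 27.0. The log2 ratio was 2.12 for Y-14 and 1.34 for Y-47, so probes for nearly the same RNA stood 0.78 apart at this signal level.

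Y-84 shares 11 bases with Y-82, listed as miR-3104-5p, and capitals mark that run in both.
Y-84: gGGGGGCAGGAGgggcucaggg
Y-82: uaGGGGGCAGGAGccggagcccucu
Y-82, with 60% purines, gave 1263 in the Bama pool and 253 in the Landrace pool, a log2 ratio of 2.32, above that of Y-84. Y-55 shares 9 bases with ssc-miR-320, which gave 2569 and 2797, a log2 ratio of -0.12. Neither Y-55 nor ssc-miR-320 came near 2-fold.

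The members just inside the limit were Y-71 and Y-55, both at 80% purines, with log2 ratios of 0.74 and 0.11. The added probe just outside it was Y-48, at 79.2%, which gave 18.9 in the Bama pool and 5.70 in the Landrace pool. With it, 8 added probes had from 75% to below 80% purines, and 4 of them (Y-14, Y-25, Y-48 and Y-65) were 2-fold or more higher, all with mean signals below 100. Y-35 was the only one of the 8 that was 2-fold or more lower, at signals of 1.51 and 5.98. Those of the 8 with mean signals of 100 or more were Y-78, with 236 in the Bama pool and 147 in the Landrace pool, and Y-57, with 180 and 130, log2 ratios of 0.68 and 0.47. Extending the limit to 75% gave 22 probes, of which 14 were higher and 1 was lower.

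The log2 ratio was set against purine content over all added probes, in classes of the share of A plus G. The median was -0.82 in the 15 probes below 40%, -0.25 in the 11 from 40% to below 50%, -0.23 in the 22 from 50% to below 60%, 0.28 in the 21 from 60% to below 70%, 0.68 in the 17 from 70% to below 80%, and 1.26 in the 14 members. With no minimum on the signal, the median among added probes thus stood higher in each class than in the one before. With a mean signal of 100 or more that order broke below 60%, where 10 of 48 added probes were left: the medians were 0.083 (1 probe), -0.48 (4 probes) and 0.063 (5 probes), followed by 0.34 (9 probes), 0.68 (3 probes) and 1.25 in the 10 members. With the offset of 50 and no minimum the medians were -0.077, -0.069, -0.027, 0.15, 0.24 and 1.08. The offset draws probes of low signal toward 0, and 10 of the 14 members but only 3 of the 17 probes from 70% to below 80% had a mean signal of 100 or more, so the classes are not compared at equal signal. The classes below 50% and from 70% upward hold fewer than 20 probes each.

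The miRBase probes gave no such order. Their medians were 0.0014 in the 52 probes below 40%, -0.031 in the 75 from 40% to below 50%, -0.058 in the 93 from 50% to below 60%, 0.083 in the 28 from 60% to below 70%, and 0.19 in the 7 from 70% to below 80%. The only miRBase probe with 75% or more was ssc-miR-320, so the miRBase set holds no probes with which the members could be compared at equal purine content.

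Over probes with a mean signal of 100 or more, the log2 ratio and the purine share had a Pearson's r of 0.71 and a Spearman's rho of 0.78 across 32 added probes. Without the members, r was 0.56 and rho 0.69 across 22 added probes. Across 150 miRBase probes, r and rho were both 0.048. The share of G (r = 0.66) followed the ratio more closely than the share of A (r = 0.31) or of G plus C (r = 0.24) among the 32. These points are probes, not samples: they all come from the same pair of arrays, several share sequence, and base composition is tied to how a probe hybridises, so the coefficients are descriptions only.

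The added probes also differ in origin. By the study's probe list, 12 of the 14 members come from pig fat or muscle, 1 from pig pituitary and 1 from another species. The 12 fat or muscle members held all 10 probes at 2-fold or more, with a median log2 ratio of 1.31. Of the 41 other added probes of the same origin, 7 were higher, 13 were lower, and the median was 0.080. At a mean signal of 100 or more, 7 of 8 fat or muscle members were higher, with a median of 1.26 and log2 ratios from 0.11 to 2.10. Of the 6 others at that level, 0 were 2-fold higher but 5 were above 0, with a median of 0.37 and log2 ratios from -0.71 to 0.97. The ranges overlapped, and the part of origin in the ratios was not tested.

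Because of the listed origin in fat or muscle, the miRNAs fixed as markers of striated muscle were read in the same pools. The summed signal of the 6 was 1528 in the Bama pool and 659.7 in the Landrace pool, with the highest mean signal in ssc-miR-133b. Signals of different probes are not on a common scale, so the highest signal in a list need not mark its most abundant miRNA. Of the 6, 3 were 2-fold or more higher in Bama minipigs: ssc-miR-1 (426 and 25.1), ssc-miR-133a-3p (370.4 and 79.2) and ssc-miR-133b (439 and 80.6). Another 2 were lower, ssc-miR-206 (117 and 278) and ssc-miR-208b (0.829 and 4.29), and ssc-miR-499-5p gave 175 and 192. Whether muscle RNA in the pools had a part in the signals of the purine-rich added probes was not tested.

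The lists for other cells that the tissue could hold had at most 2 probes each past 2-fold in either direction. The 4 blood cell miRNAs summed to 5497 in the Bama pool and 6026 in the Landrace pool, with 0 higher, 1 lower (ssc-miR-142-3p, 0.489 and 1.46) and the highest signal in ssc-miR-451. The 5 of connective tissue and vessels summed to 15631 and 20129, with 0 higher, 1 lower (ssc-miR-143-3p, 1163 and 2343) and the highest signal in ssc-miR-126. The 4 of brain and posterior lobe summed to 5468 and 5650, with 1 higher (ssc-miR-124a, 66.3 and 27.0), 1 lower (ssc-miR-219, 6.13 and 14.8) and the highest signal in ssc-miR-128. The calls of ssc-miR-142-3p, ssc-miR-124a and ssc-miR-219 rest on mean signals below 100. The part of these cells in the result was not tested.

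A precursor sequence was listed for 9 of the 14 members, and for 7 of those it contains the mature sequence without a mismatch. No precursor was listed for Y-23, Y-24, Y-44, Y-56 and Y-84. The mature sequence lay nearer the 5′ end of the precursor in 6 and nearer the 3′ end in 3 (Y-12, Y-31 and Y-47). Y-31 and Y-12 are printed as examples of the latter, and Y-30 and Y-71 of the former, with the mature miRNA in capitals.
Y-31 precursor: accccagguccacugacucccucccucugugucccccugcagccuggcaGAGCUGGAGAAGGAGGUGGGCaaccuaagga
Y-12 precursor: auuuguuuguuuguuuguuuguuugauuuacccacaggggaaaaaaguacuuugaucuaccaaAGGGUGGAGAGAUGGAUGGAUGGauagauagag
Y-30 precursor: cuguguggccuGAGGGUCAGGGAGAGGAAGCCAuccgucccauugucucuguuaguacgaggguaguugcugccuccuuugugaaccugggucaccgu
Y-71 precursor: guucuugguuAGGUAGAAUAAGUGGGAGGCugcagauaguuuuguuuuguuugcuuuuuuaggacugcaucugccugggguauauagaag

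The minimum free energy of folding computed for the 9 precursors ran from -21.3 kcal/mol for Y-71 to -35.4 kcal/mol for Y-30, with a median of -27.4 kcal/mol. Per base the median was -0.343 kcal/mol, against -0.402 kcal/mol for the 60 other added probes with a precursor. Of the mature bases, 91.3% were paired in the predicted structure of Y-12, and 66.7% in those of Y-31 and Y-50. The ratio between the pools had no part in these predictions, and the difference in energy per base was not tested.

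In the precursors listed for Y-22 and Y-50 the closest stretch differs from the mature sequence of the probe list, and it stands in capitals.
Y-22 precursor: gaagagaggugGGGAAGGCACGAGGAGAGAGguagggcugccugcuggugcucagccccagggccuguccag
Y-50 precursor: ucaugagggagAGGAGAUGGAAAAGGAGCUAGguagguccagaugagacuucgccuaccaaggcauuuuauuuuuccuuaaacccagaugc
Counted from 1 at the 5′ end of the mature sequence, with the base of the probe list first and that of the precursor second, the differences are U14G in Y-22 and G12A and U14G in Y-50. Both probes had mean signals below 100.

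The arrays were also scaled in other ways. Median scaling used the median over probes with a mean signal of 100 or more, and scaling by the 75th percentile used all probes. Median scaling, percentile scaling and quantile normalization moved the log2 ratios by a median of -0.17, -0.19 and -0.18, respectively. Scaling by a median or percentile shifts every log2 ratio alike and so cannot change the distance between the set and the array. Under quantile normalization, which can, the median of the 14 exceeded that of all probes by 1.16, against 1.23 with the deposited signals. The same 10 probes were 2-fold or more higher in each. Some stood close to a log2 ratio of 1: after scaling by the 75th percentile, Y-56 had 1.03 and Y-44 and Y-31 had 1.06. A slightly larger downward shift would leave fewer than 10. Scaling by the medians over all probes, 114 and 95.1, was not run. Cyclic loess over probes with a mean signal of 100 or more left the same 7 of 10 members higher as the deposited signals did. Of all probes that differed 2-fold, 56.1% were higher in Bama minipigs with the deposited signals, 49.2% after median scaling (63 higher and 65 lower), 48.8% after scaling by the 75th percentile (63 and 66) and 53.4% after quantile normalization (62 and 54). Over the array, the majority of calls thus turned from higher to lower under the median and percentile scalings. Cyclic loess gave 80%, the same share as the deposited signals over the same 182 probes.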

How the data were processed

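Small RNA of the anterior pituitary was hybridised to 1 custom array per breed, each with a pool of 3 pigs. The deposited values are intensity values on a linear scale, 1 per probe and array, which the authors made by subtracting background, normalizing with a LOWESS filter and combining repeat spots; how values below background stay above 0 is not given in the sources used here. Mature and precursor sequences and origins came from the study's supplementary lists, from which no value was taken. Their coordinates name no genome build and were not used. The sequences of Y-44 and Y-56 are not reported here.

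Members, marker lists and the motif were chosen with earlier results of these data known. Named probes were the members, added or miRBase probes with 75% or more purines, the nearest probes by shared runs, the markers and other holders of GGAGG. Named as well were ssc-miR-328, for its name, and the miR-199 probes, for their overlap. Log2 ratios were taken without scaling or pseudocount, and 2-fold was the rule of size. With 1 array per breed, no test was run, and their number limits the precision. Scripts were tested on simulated data. Python 3.11.15, pandas 2.3.3, scipy 1.17.1, ViennaRNA 2.7.2 (RNAfold) and limma 3.58.1 in R 4.3.3 were used. Alternatives covered the scaling, an offset of 50, mean signals of 100 and 500, the purine limit and shared sequence. The t-test that the methods name was not run, as 1 value per probe and array allows none.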

Additional observations from a re-analysis of the deposited data

How the results depend on the processing

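None of the 10 purine-rich added probes with a 2-fold difference changed sign under quantile normalization, nor did the 7 of them with a mean signal of 100 or more under cyclic loess, which left out Y-15, Y-22 and Y-47. The shifts of the other scalings were smaller than these ratios, and the offset, the minimums and the purine limits cannot change a sign. Y-55 turned sign under the scalings by median and percentile, and Y-50 under quantile normalization. Of counts, 7 of 10 members were higher after cyclic loess or with a mean signal of 100 or more, 7 of 14 with an offset of 50, 5 of 7 with a mean signal of 500 or more, and 5 of 5 with a purine limit of 85%, where the median log2 ratio was 1.59. Those at the limit of 85% were Y-15 and Y-22, with mean signals below 100, and Y-23, Y-44 and Y-56, which share runs of bases. With a limit of 75%, 1 probe was lower. Over all probes, 24 were higher and 6 lower after cyclic loess and with a mean signal of 100 or more, 23 and 4 with the offset, and 15 and 3 with a mean signal of 500 or more; fewer probes enter the minimums by construction, and an offset shrinks the ratios of low signals. The share of higher among these was 80%, 80%, 85.2% and 83.3%.

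The scalings shift every log2 ratio by construction. Median scaling used the median over probes with a mean signal of 100 or more. With it, the median log2 ratio was 1.09 for the members and -0.14 for all probes. By purine class, from the lowest, medians of added probes were -0.99, -0.42, -0.40, 0.11, 0.51 and 1.09, and of miRBase probes -0.17, -0.20, -0.23, -0.088 and 0.018. Members with GGAGG had 1.07 and other probes with it 0.69. Scaling by the 75th percentile over all probes gave 1.07 for members, -0.16 for all probes, -1.01, -0.44, -0.42, 0.10, 0.49 and 1.07 by class of added probes, -0.19, -0.22, -0.25, -0.10 and 0.0012 by class of miRBase probes, and 1.06 and 0.68 for the motif. Taking that percentile over probes with a mean signal of 100 or more, an alternative chosen after seeing the data, gave 1.08, -0.15, then -1.002, -0.44, -0.41, 0.10, 0.49 and 1.08, then -0.18, -0.22, -0.24, -0.10 and 0.0046, and 1.06 and 0.68, in the same order. It called 63 probes higher and 66 lower.

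Quantile normalization gave 1.10 for the members. Classes of added probes that moved by more than 0.1 were those below 40% (-1.18), from 40% (-0.61), from 60% (0.0), from 70% (0.47) and from 80% (1.10), and among miRBase probes that from 70% (-0.039). The motif medians were 1.07 and 0.59. With the offset of 50 the members' median was 1.08, classes of added probes had -0.077, -0.069, -0.027, 0.15, 0.24 and 1.08, miRBase probes from 70% had 0.037, and other probes with GGAGG 0.24. With a mean signal of 100 or more, added probes below 40% had 0.083 (1 probe), from 40% -0.48 and from 50% 0.063, miRBase probes from 70% had -0.042, and other probes with GGAGG 1.03. Why the class medians moved under quantile normalization was not tested.

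Each breed is 1 pool on 1 array, so breed, pool and array cannot be told apart. Signal over background was not determined, which limits the 4 members with mean signals below 100. No paired analysis was possible because each breed has 1 sample.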

Other observations

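At the other end of the scale of purine content, the 15 added probes with less than 40% A plus G had a median log2 ratio of -0.82, with 0 probes 2-fold or more higher in Bama minipigs and 7 lower. Only 1 of the 15, Y-90, had a mean signal of 100 or more, and it gave 34707 in Bama minipigs and 32765 in Landrace pigs. Among miRBase probes with less than 40%, 8 of 52 were higher and 7 were lower. The longest unbroken run of purines had a Spearman's rho of 0.78 with the log2 ratio across the 32 added probes with a mean signal of 100 or more, and of 0.028 across 150 miRBase probes.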
